A study of Mus musculus with 6 samples.

Results

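9 mouse genes outside chromosome 19, Kat2b, Usp50, Map3k12, Ncapg, Zfp606, Armc10, Fgf7, Coro1c and Sp3, were followed on 6 Affymetrix arrays, of 18193 genes with a probe set of their own. They were chosen by their strain differences on these same arrays, which recurred in more than 1 tissue. Every probe set annotated to one of them was taken, 23 of the 45101 on the array, and each is described apart. Of these, 22 carried 1 gene symbol and 1 carried both Usp50 and Polr2l. The strains were 129/Sv and 129.MOLF-Chr19, a consomic strain that has the MOLF strain's chromosome 19 in place of its own and develops testicular germ cell tumors. Each array held 1 pool of RNA from males: E13.5 testis from 20 pairs of testes in each strain, postnatal day 1 (PN1) testis from 12 pairs in 129/Sv and 25 pairs in 129.MOLF-Chr19, and whole E13.5 embryos from 3 embryos in each strain. The embryo served as a comparison tissue for the testis. Each combination of strain and tissue has a single array, and so its strain difference is unreplicated.

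In a consomic strain the chromosomes other than the substituted one come from the host strain, so by design these genes carry host alleles in both strains. The 9 genes belong to no single pathway. Kat2b encodes a lysine acetyltransferase of the SAGA and ATAC coactivator complexes, Sp3 a zinc finger transcription factor that binds GC boxes, and Zfp606 a KRAB zinc finger protein of a family that represses transcription. Map3k12 encodes a kinase upstream of JNK, Fgf7 a growth factor made by mesenchyme that acts on the Fgfr2 receptor of epithelia, and Usp50 a member of the ubiquitin-specific peptidase family. Ncapg encodes a subunit of condensin, which compacts chromosomes in mitosis, Coro1c an actin-binding coronin, and Armc10 an armadillo repeat protein.

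The labels of the tissues mostly matched their marker genes. Of 8 germ cell markers found on the array, 7 were tested and all 7 were higher in the E13.5 testis than in the embryo by limma (adjusted p under 0.05), as were 7 of 8 Sertoli cell and 5 of 5 Leydig cell markers, whereas 5 of 5 liver and 6 of 6 muscle markers were lower. Other lists were less clear: 2 of 5 tested neural markers were lower, and 0 of 4 macrophage markers differed. Of 7 interstitial and peritubular markers, 3 were higher and 2 lower. The median intensity of the arrays ran from 220.5 to 250.7, and the 2 strains of a tissue correlated across probe sets at 0.977 to 0.986. The ratio of 3 prime to 5 prime signal of the Actb control was 1.84 for the consomic PN1 testis, against 1.09 to 1.19 elsewhere, and its part in the PN1 values was not tested. In RNA from whole tissue, fewer cells of a type and less RNA per cell cannot be told apart.

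The genes lie on 5 chromosomes of GRCm38.p6: Usp50, Fgf7 and Sp3 on 2, Ncapg, Armc10 and Coro1c on 5, Zfp606 on 7, Map3k12 on 15 and Kat2b on 17. The start regions of 4 genes are shown because they stand for opposite directions of the strain difference, Kat2b and Armc10 brighter in 129.MOLF-Chr19 and Fgf7 and Usp50 dimmer. Each runs 5′ to 3′ from 250 bases before to 50 bases after a RefSeq start site in GRCm38.p6, with the GC box motif GGGCGG or its complement CCGCCC, which Sp family factors bind, in capitals. Kat2b lies at chr17:53566721-53567020 on the plus strand, Armc10 at chr5:21645756-21646055 on the plus strand, Fgf7 at chr2:126034408-126034707 on the plus strand and Usp50 at chr2:126783411-126783710 on the minus strand.
Kat2b: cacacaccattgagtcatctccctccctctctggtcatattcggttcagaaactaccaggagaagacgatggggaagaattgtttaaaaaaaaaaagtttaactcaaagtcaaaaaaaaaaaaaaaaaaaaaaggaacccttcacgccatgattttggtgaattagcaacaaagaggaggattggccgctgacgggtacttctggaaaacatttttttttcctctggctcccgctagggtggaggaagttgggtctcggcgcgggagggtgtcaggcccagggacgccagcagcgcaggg
Armc10: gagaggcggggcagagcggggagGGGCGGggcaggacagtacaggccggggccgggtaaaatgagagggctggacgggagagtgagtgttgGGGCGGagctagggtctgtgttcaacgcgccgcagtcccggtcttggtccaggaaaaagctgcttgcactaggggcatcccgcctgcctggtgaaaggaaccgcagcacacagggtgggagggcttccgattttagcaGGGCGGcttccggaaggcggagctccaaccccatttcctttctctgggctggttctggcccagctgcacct
Fgf7: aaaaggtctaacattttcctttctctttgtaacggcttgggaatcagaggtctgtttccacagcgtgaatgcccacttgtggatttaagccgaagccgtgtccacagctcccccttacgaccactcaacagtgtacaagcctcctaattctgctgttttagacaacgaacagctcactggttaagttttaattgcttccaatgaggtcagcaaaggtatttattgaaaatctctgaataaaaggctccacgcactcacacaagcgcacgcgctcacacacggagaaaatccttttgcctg
Usp50: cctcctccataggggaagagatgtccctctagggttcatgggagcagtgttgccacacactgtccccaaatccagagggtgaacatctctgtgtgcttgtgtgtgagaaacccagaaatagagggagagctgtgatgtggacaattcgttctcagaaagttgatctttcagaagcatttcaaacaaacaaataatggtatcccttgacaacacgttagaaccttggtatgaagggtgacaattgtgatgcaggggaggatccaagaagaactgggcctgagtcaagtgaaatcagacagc
The Armc10 window held 3 matches, and the windows of Kat2b, Fgf7 and Usp50 held 0. RefSeq listed 12 such windows for the 9 genes, and 8 of them, in 6 genes, held at least 1 match, against 35.7% of all 32851 windows of the same length. The windows of the 9 genes had a GC content of 45.7 to 77.0%, against a median of 52.7% over all windows. Of the other genes mostly brighter in 129.MOLF-Chr19, Ncapg held 2 matches, Zfp606 1, Coro1c 1 and Sp3 2 and 5 in its 2 windows. Map3k12, which was dimmer, held 1 and 2 in its 2 windows. Whether matches go with the direction of the strain difference was not tested. A match describes the letters in these windows only.

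Values are given as deposited intensities on a linear scale. For differences, intensities under an array's 25th percentile were set to that percentile, and log2 values were centred on the array's median. A strain difference is consomic minus 129/Sv on that log2 scale, and probe sets were compared in a tissue where at least 1 of its arrays lay above its own median. The probe set with the highest mean over the 6 arrays represents each gene. These strain differences chose the genes, so they are descriptions without a test.

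6 of the 9 genes were brighter in 129.MOLF-Chr19 in most tissues. Kat2b was near or past 2-fold in every tissue. Its representative probe set 1434037_s_at read 353.8, 382.4 and 409.5 in the 129/Sv E13.5 testis, PN1 testis and embryo, and 715.7, 940.8 and 770.3 in 129.MOLF-Chr19. All 3 consomic arrays lay above all 3 of 129/Sv, and the strain differences were 1.13, 1.30 and 1.00, the last 1.999-fold. Ncapg read 633.0, 271.2 and 287.8 in 129/Sv and 824.4, 462.7 and 431.8 in 129.MOLF-Chr19 in the same order, with strain differences of 0.50, 0.77 and 0.67. Its strain groups overlapped, since the 129/Sv E13.5 testis was brighter than the consomic PN1 testis and embryo.

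Zfp606 read 295.2, 166.6 and 207.7 in 129/Sv and 405.9, 253.1 and 352.4 in 129.MOLF-Chr19, for strain differences of 0.58, 0.60 and 0.85. Armc10, which had 1 probe set, read 432.3, 317.7 and 386.5 in 129/Sv and 655.4, 451.8 and 551.1 in 129.MOLF-Chr19, for strain differences of 0.72, 0.51 and 0.60. In each of these genes every consomic array lay above the 129/Sv array of its own tissue, and every one except the PN1 array of Zfp606 lay above all 3 of 129/Sv. Coro1c read 333.4, 417.1 and 373.5 in 129/Sv and 556.3, 456.2 and 591.6 in 129.MOLF-Chr19. Its strain difference was 0.86 in the E13.5 testis and 0.75 in the embryo but 0.13 in the PN1 testis. Its 3 consomic arrays lay above all 3 of 129/Sv.

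Sp3 changed direction between tissues. Its 1 probe set read 815.7 in 129/Sv and 1373 in 129.MOLF-Chr19 in the E13.5 testis, and 435.2 and 957.4 in the embryo, for strain differences of 0.87 and 1.22. In the PN1 testis it read 1204 in 129/Sv and 711.1 in 129.MOLF-Chr19, a strain difference of −0.76. The consomic array was thus the brighter of its tissue at E13.5 and the dimmer at PN1.

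3 genes were dimmer in 129.MOLF-Chr19 in every tissue. Map3k12 read 3012, 2887 and 2875 in 129/Sv, the highest signals among the 9 genes and nearly alike in all tissues, and 2128, 1193 and 1059 in 129.MOLF-Chr19. All 3 consomic arrays lay below all 3 of 129/Sv, with strain differences of −0.38, −1.28 and −1.35. Usp50 read 422.3, 196.4 and 510.9 in 129/Sv and 177.2, 139.5 and 245.4 in 129.MOLF-Chr19, for strain differences of −1.14, −0.50 and −0.97, and both PN1 arrays lay below their own medians. Fgf7 read 253.5, 231.6 and 299.9 in 129/Sv and 151.0, 155.7 and 181.2 in 129.MOLF-Chr19. Its strain differences, −0.63, −0.57 and −0.64, were the most alike over the tissues, and its strain groups did not overlap.

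**Figure D1:**
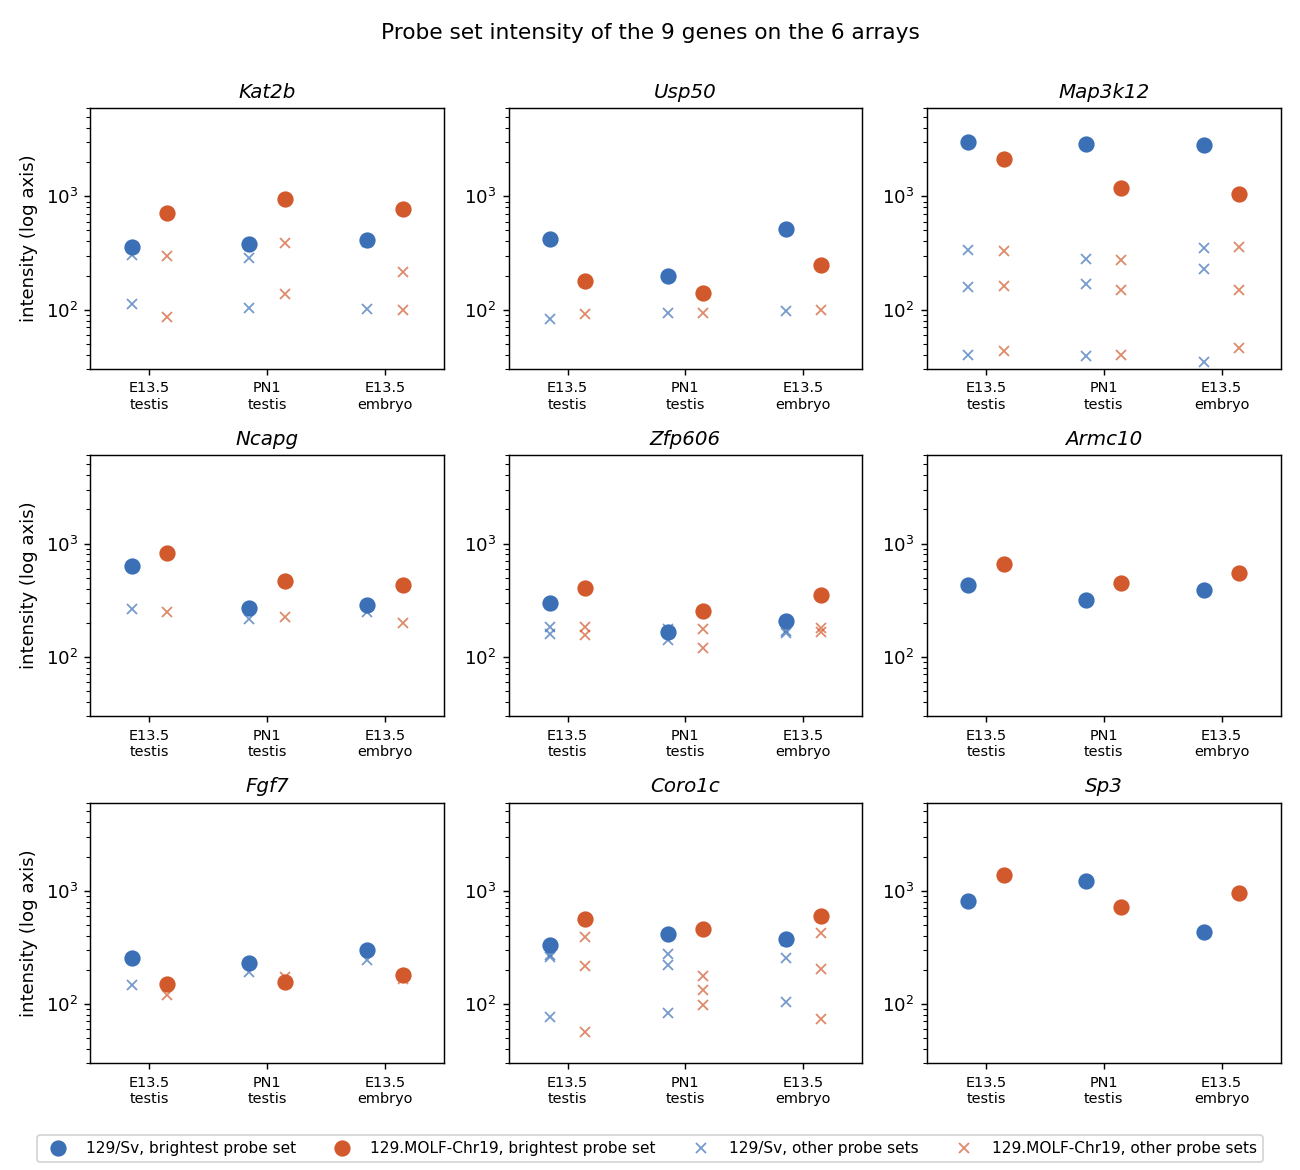
Intensity (log axis) of every single-symbol probe set of the 9 genes on the 6 arrays, blue for 129/Sv and orange for 129.MOLF-Chr19, 1 array per point; discs are the representative probe set and crosses the others. Kat2b, Map3k12, Armc10, Fgf7 and Coro1c have discs of 1 strain wholly above those of the other, while Sp3 has the 129/Sv disc on top in the PN1 testis alone.

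Against all probe sets compared, differences of this size were rare, as the choice of the genes required. In the E13.5 testis 1 of 14 compared probe sets of the genes was at least 2-fold higher in 129.MOLF-Chr19 (Kat2b; background 0.101%) and 1 at least 2-fold lower (Usp50; background 0.0676%). In the PN1 testis 1 of 11 was higher (Kat2b; background 0.202%) and 2 were lower (Map3k12 and the second probe set of Coro1c; background 1.69%). In the embryo 1 of 13 was higher (Sp3; background 0.0547%) and 1 lower (Map3k12; background 0.294%). At 1.5-fold, the E13.5 testis had 5 higher and 2 lower (backgrounds 2.66% and 0.676%), the PN1 testis 3 and 3 (1.4% and 4.39%) and the embryo 6 and 4 (1.75% and 2.27%). Before centring, the array medians differed between the strains by −0.117 (log2) for the E13.5 testis, 0.003 for PN1 and −0.088 for the embryo, and all strain differences are relative to these shifts. In the E13.5 testis the higher calls made up 60% of all 2-fold calls after centring, 32.4% on the values as deposited and 38.5% after quantile normalization.

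The second largest of a gene's 3 strain differences in 1 direction measures how far it recurs. Among 11778 genes outside chromosome 19 with such a value, Map3k12 ranked 1 at 1.28 (log2), Kat2b 2 at 1.13, Usp50 3 at 0.97, Sp3 4 at 0.87, Coro1c 6 at 0.75, Ncapg 12 at 0.67, Fgf7 19 at 0.63, Zfp606 26 at 0.60 and Armc10 27 at 0.599. Thus 27 genes reached the value of Armc10, and 18 of them are not among the 9. The highest of these was Rpf2 at 0.79, and the gene just below Armc10 was Klhl28 at 0.598. In all 3 tissues together, 4 genes outside chromosome 19 differed by at least 0.5 in 1 direction, Kat2b, Zfp606, Fgf7 and Armc10, and Ncapg followed at 0.498. Only Kat2b was past 1.5-fold in all 3.

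The other probe sets of these genes mostly did not show the strain difference of the representative one. Of 13 further single-symbol probe sets, 5 lay above the median in at least 1 tissue, which gave 12 values. Of these values 6 had the sign of the representative probe set, 1 was at least 1.5-fold in its direction and 2 at least 1.5-fold against it. For Kat2b, 1450821_at read 306.3, 283.0 and 395.3 in 129/Sv and 298.7, 390.6 and 216.2 in 129.MOLF-Chr19, with strain differences of 0.08, 0.46 and −0.78. It was therefore dimmer in the consomic embryo, where the representative probe set was brighter. For Map3k12, 1417115_at read 275.2 to 357.2 on all 6 arrays, with strain differences of 0.07, −0.03 and 0.11.

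Coro1c had 4 probe sets. In 1417752_at the signal was 260.1, 275.0 and 355.8 in 129/Sv and 387.4, 133.7 and 421.6 in 129.MOLF-Chr19, so that the strain difference was 0.69 in the E13.5 testis and 0.33 in the embryo but −1.04 in the PN1 testis. This probe set and the representative one were both brighter in the consomic arrays at E13.5 and parted at PN1. Another, 1419911_at, was dimmer in 129.MOLF-Chr19, at −0.20 in the E13.5 testis and −0.23 in the embryo. The second Ncapg probe set, 1429172_a_at, read 199.3 to 264.6 on all arrays and was at 0.03 in the E13.5 testis. The second Fgf7 probe set, 1438405_at, below the median on every array, was at −0.17, −0.14 and −0.47, the same sign as the first. The other 2 probe sets of Zfp606 lay below the median on every array, as did 1 more of Kat2b and 1 more of Map3k12. 3 probe sets, 1 each of Usp50, Map3k12 and Coro1c, lay at or below the 25th percentile on all 6 arrays, so they give no fold.

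The probe set that carries both Usp50 and Polr2l, the gene of a small RNA polymerase subunit, cannot be assigned to either. It read 2053, 3434 and 2335 in 129/Sv and 2602, 3373 and 2133 in 129.MOLF-Chr19, and its strain differences of 0.46, −0.03 and −0.04 did not show the fall of the Usp50 probe set. Single-symbol probe sets of Usp50 never read above 510.9.

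**Figure D2:**
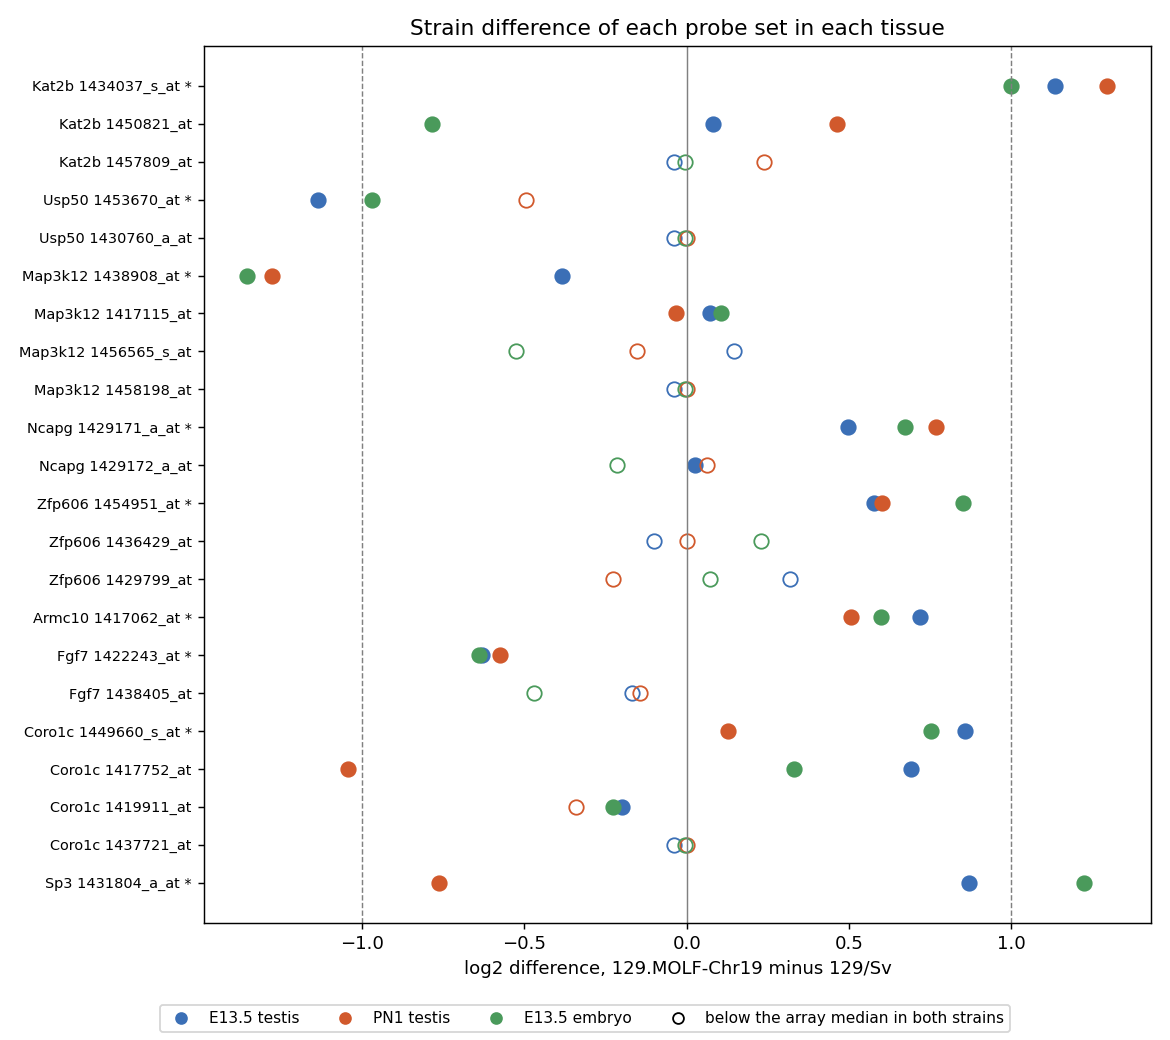
Strain difference (log2, 129.MOLF-Chr19 minus 129/Sv) of the 22 single-symbol probe sets, 1 row each, in the E13.5 testis (blue), PN1 testis (orange) and embryo (green); open circles were below the array median in both strains, asterisks mark the representative probe set and dashed lines mark 2-fold. Kat2b lies near or past 2-fold in all tissues in its first row, and at −0.78 to 0.46 in its second.

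Differences between tissues were not used to choose the genes and were tested with limma on the 6 arrays together, strain being a block, 2 arrays per tissue and 2 residual degrees of freedom. Of the 22 single-symbol probe sets, 14 lay above the median in at least 2 arrays and entered the fit. Each pair of tissues shares arrays with the other pairs. The residual of this fit is how far the strain difference varies over tissues, which genes chosen for a recurring strain difference can have small, so the fit without the strain block is given beside each call.

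From E13.5 to PN1 the testis signal of 3 genes fell, in 1 probe set each. Ncapg fell by 1.02 on the log2 scale (SE 0.13, n = 2 arrays per tissue, limma adjusted p = 0.00613), and it was lower at PN1 in both strains. Zfp606 fell by 0.74 (SE 0.13, limma adjusted p = 0.0176) and Usp50 fell by 0.72 (SE 0.18, limma adjusted p = 0.0465), each lower at PN1 in both strains. These were 3 of 14 probe sets, against a background of 9.43% lower, and 0 of 14 were higher, against 3.14%. At an unadjusted limma p under 0.05, 4 were lower and 0 higher. Armc10, at −0.48 (SE 0.12), did not pass (limma adjusted p = 0.0511). Nor did the second Ncapg probe set, at −0.21 (SE 0.14, limma adjusted p = 0.373). The probe set shared by Usp50 and Polr2l, outside the 14, was at 0.57 (SE 0.15, limma adjusted p = 0.0604). Without the strain block limma called 0 of the 14 (2 lower at an unadjusted p under 0.05), with adjusted p of 0.0566 for Ncapg, 0.164 for Zfp606 and 0.298 for Usp50. Without either E13.5 testis array limma also called 0 of the 14, when 112 or 113 of 24713 probe sets were called in all, against 3106 with every array. Usp50 was called in 1 of the 6 fits that left out an array, the one without the consomic PN1 testis, and its difference ran from −0.99 to −0.44 over them, with adjusted p up to 0.318. Ncapg and Zfp606 were called in 4 of the 6 each. The higher share of these calls was 25.0%, and 40.3% after quantile normalization.

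Ncapg was also the 1 gene that differed between the E13.5 testis and the embryo. It was higher in the E13.5 testis by 1.12 (log2, SE 0.13, n = 2 arrays per tissue, limma adjusted p = 0.00263), in both strains, and the call held without the strain block (adjusted p = 0.0320). Without the E13.5 testis array of 129/Sv it did not pass (adjusted p = 0.0626). Its second probe set was higher by 0.30 (SE 0.14, limma adjusted p = 0.198), in the same direction and smaller. So 1 of 14 probe sets was higher, against a background of 14%, and 0 were lower, against 4.03%. At an unadjusted limma p under 0.05, 3 were higher and 0 lower. Zfp606, at 0.44 (SE 0.13), had a limma adjusted p of 0.0691, and the brightest probe set of Map3k12, at 0.62 (SE 0.24), one of 0.127. The higher share of all calls was 77.7%, and 67.4% on the values as deposited and 62.0% after quantile normalization.

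Between the PN1 testis and the embryo, Usp50 was the 1 gene that passed. It was lower in the PN1 testis by 1.01 (log2 difference −1.01, SE 0.18, n = 2 arrays per tissue, limma adjusted p = 0.0115), in both strains. Without the strain block limma called 0 of the 14 (2 lower and 0 higher at an unadjusted p under 0.05; Usp50 at an adjusted p of 0.130), and Usp50 also did not pass with a floor at the 40th percentile or without either embryo array. The background was 6.48% lower and 9.1% higher, and 0 of the 14 were higher, also at an unadjusted p under 0.05. The probe set shared by Usp50 and Polr2l moved the other way, higher in the PN1 testis by 0.70 (SE 0.15, limma adjusted p = 0.0261; adjusted p = 0.0240 without the strain block). Of all calls 58.4% were higher, and 43.4% on the values as deposited.

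The order of the tissues, by the mean of both strains, was E13.5 testis, PN1 testis, embryo for Ncapg, of which the last pair differed by 0.10 (SE 0.13, limma adjusted p = 0.670). For Usp50 it was embryo, E13.5 testis, PN1 testis, the first pair differing by 0.29 (SE 0.18, limma adjusted p = 0.317). For Zfp606 it was E13.5 testis, embryo, PN1 testis, and only the first and last of these passed. For Kat2b, Map3k12, Armc10, Fgf7, Coro1c and Sp3 no pair of tissues passed, with adjusted p from 0.0511 to 0.968 over their probe sets in the fit. For Kat2b, the representative probe set differed between tissues by 0.26 at most (PN1 over E13.5 testis, SE 0.13, limma adjusted p = 0.253).

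**Figure D3:**
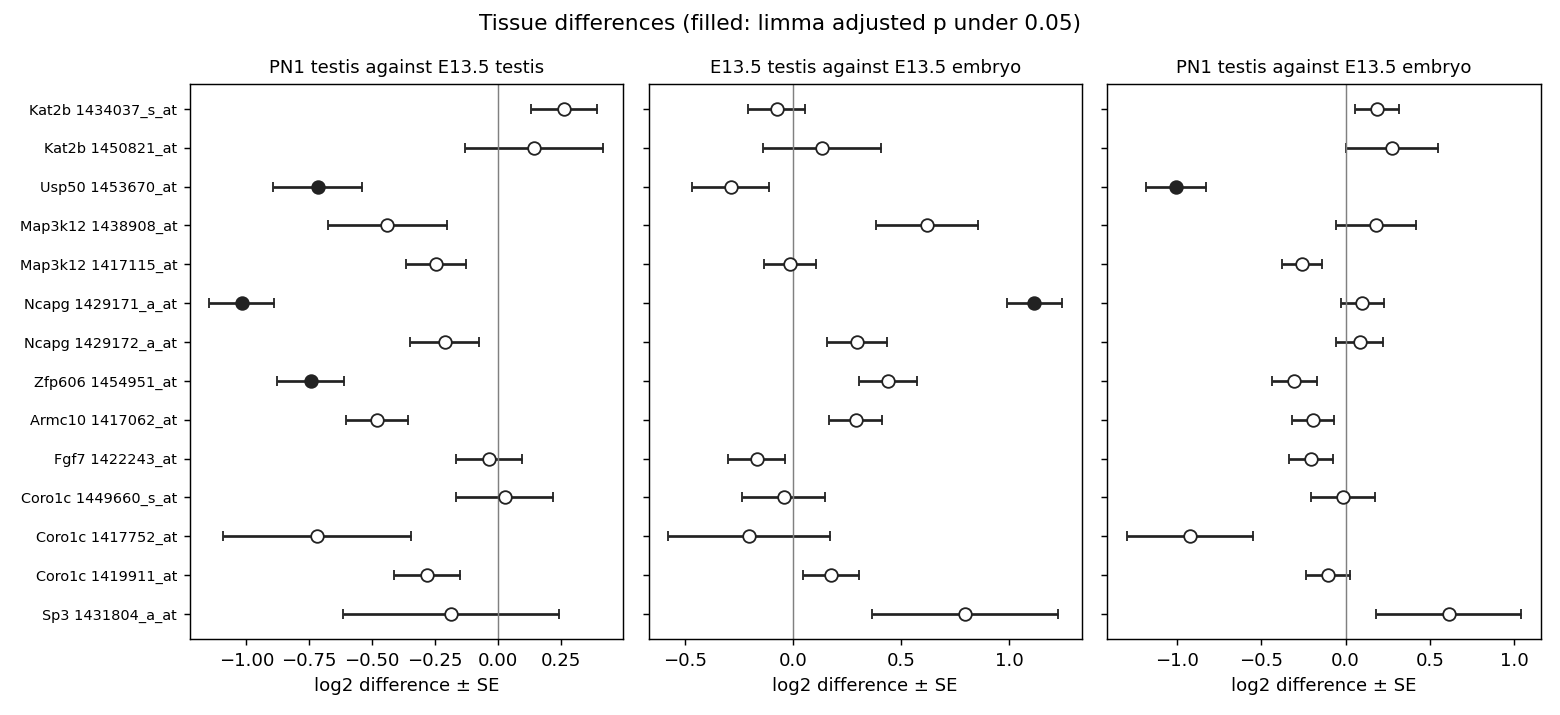
Log2 difference with its SE between each pair of tissues for the 14 single-symbol probe sets in the limma fit over 6 arrays, 2 per tissue; filled points had an adjusted p under 0.05. Ncapg stands at −1.02 and 1.12 in the first and second panel, and Usp50 at −1.01 in the third.

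The relatives and partners of the 9 genes were taken from lists of 7 to 24 genes each. Of the condensin partners of Ncapg, all 7 were tested and 3 fell from the E13.5 to the PN1 testis (background 9.43% lower). Smc2, an ATPase core subunit, fell by 0.90 (SE 0.12, limma adjusted p = 0.0079), Ncapg2 of condensin II fell by 0.54 (adjusted p = 0.0327) and Ncapd2 of condensin I fell by 0.51 (adjusted p = 0.0491). In the E13.5 testis 4 of 7 were higher than in the embryo (background 14%): Ncapd3 by 0.90, Smc2 by 0.78, Ncapd2 by 0.54 and Ncapg2 by 0.53, with limma adjusted p from 0.00459 to 0.0321. The list's medians were −0.51 and 0.53, against −0.04 and 0.05 for all probe sets. Without the strain block 1 and 2 of the 7 were called, and without either E13.5 testis array 0. Between the strains none of the 7 was 2-fold apart in any tissue, with medians of 0.16, 0.17 and 0.27 in the tissue order used above, against 0.07, 0.02 and 0.03 for all probe sets.

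Among the 23 measured SAGA and ATAC partners of Kat2b, 22 were tested. Tada1 fell by 0.84 from the E13.5 to the PN1 testis (SE 0.13, limma adjusted p = 0.0126), 1 of the 22 (background 9.43% lower). Trrap and Tada2a, 2 of the 22, were higher in the E13.5 testis than in the embryo (background 14%). They differed by 0.82 and 0.64 (limma adjusted p = 0.0387 and 0.0152). Both shares lay under the background. Wdr5 was the 1 partner at least 2-fold apart between strains, lower in the consomic PN1 testis. Kat2a, the close relative of Kat2b, read 871.6, 916.5 and 874.9 in 129/Sv and 920.9, 872.4 and 1004 in 129.MOLF-Chr19, with strain differences of 0.20, −0.07 and 0.29. The medians of the list were 0.12, 0.05 and 0.16.

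Of the Sp family, 4 of 6 measured genes were tested, and 1, Sp1, passed in the 2 comparisons below (backgrounds 9.43% lower and 14% higher). Sp1 fell by 1.40 from the E13.5 to the PN1 testis (SE 0.22, limma adjusted p = 0.0121) and was 1.41 higher in the E13.5 testis than in the embryo (adjusted p = 0.00809). These values are of its brightest probe set alone. Another, above the median on every array, read 1237 and 1375 in the E13.5 testis of 129/Sv and 129.MOLF-Chr19, 910.9 and 1046 in the PN1 testis and 794.0 and 776.3 in the embryo, the same order of testis ages with a smaller gap. None of the family was 2-fold apart between strains, where the medians were −0.12, −0.23 and −0.02. The list around KRAB zinc finger proteins held 6 tested genes, which were corepressors, readers and the zinc finger gene Zfp28. Cbx5, a heterochromatin protein, fell by 0.56 and Trim28, the corepressor that KRAB domains recruit, fell by 0.45 from the E13.5 to the PN1 testis (limma adjusted p = 0.0281 and 0.0250). These were 2 of 6, against a background of 9.43% lower. None of the 6 was 2-fold apart between strains.

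Of 7 genes of the Fgf7 subfamily and its receptors, none passed between the testis ages or between the E13.5 testis and the embryo. Fgfr3 alone was lower in the PN1 testis than in the embryo (background 6.48%), by 0.48 (log2 difference −0.48, limma adjusted p = 0.0436). Fgfr2, the receptor of Fgf7, read 1920 in the 129/Sv embryo and 1100 in that of 129.MOLF-Chr19, a strain difference of −0.72, and was at 0.11 and 0.19 in the E13.5 and PN1 testis. Fgf10, which acts on the same receptor, was at −0.41, −0.21 and 0.03. The receptors Fgfr4, at −0.30, −0.39 and −0.94, and Fgfr1, at 0.34, −0.81 and 0.37, had larger single strain differences than Fgfr2. In the JNK cascade around Map3k12, 10 genes were tested. Jun was higher in the E13.5 testis than in the embryo by 0.68 and the scaffold gene Mapk8ip1 lower (−0.46), with limma adjusted p of 0.0387 and 0.0492. They were 1 of 10 each way (backgrounds 14% and 4.03%). Mapk8 was 0.76 higher in the PN1 testis than in the embryo (adjusted p = 0.0118), 1 of 10 (background 9.1% higher). No gene of either list was 2-fold apart between strains.

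Of 12 tested coronins and actin partners of Coro1c, Rcc2 fell by 1.15 and Coro1a, the coronin of blood cells, rose by 0.60 from the E13.5 to the PN1 testis (limma adjusted p = 0.00442 and 0.0331). Each was 1 of 12 (backgrounds 9.43% lower and 3.14% higher). Arpc4 was the 1 member 2-fold higher in a consomic tissue, the E13.5 testis. Of 9 tested deubiquitinases and partners listed with Usp50, 3 exceeded and 1 lay under the embryo's level in the E13.5 testis (backgrounds 14% and 4.03%), with the mitotic kinase gene Wee1 highest at 1.07 and Cdc25b lowest at −0.95 (limma adjusted p = 0.00295 and 0.00657). Of 12 armadillo repeat relatives of Armc10, Armcx1 fell by 0.80 and Gprasp2 rose by 0.49 from the E13.5 to the PN1 testis (limma adjusted p = 0.00979 and 0.0464). They were 1 of 12 each way (backgrounds 9.43% and 3.14%). Compared with the embryo, 3 of the 12 were up and 1 was down at each testis age. The backgrounds were 14% up and 4.03% down for E13.5, and 9.1% and 6.48% for PN1. The list's largest differences were PN1 testis minus embryo, −0.99 for Trak2 and 0.87 for Armcx2 (limma adjusted p = 0.00556 and 0.00263). No gene of these 2 lists was 2-fold apart between strains. Over all 9 lists, without the E13.5 testis array of either strain none of these calls between the testis ages was made. Without the strain block the calls given above for Ncapg2, Ncapd2, Fgfr3, Jun, Mapk8ip1, Coro1a and Gprasp2 were lost. This covers the calls of the genes named above, but not those of Trak2 and Armcx2.

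Among the 10 measured genes on each side of each of the 9 genes, median strain differences ran from −0.05 to 0.23, against 0.07, 0.02 and 0.03 over all compared probe sets. Of the 20 neighbours of Kat2b, 10 were above the median in some tissue, with median strain differences of −0.03, 0.00 and 0.11. Rab5a, the next gene, was at 0.36, 0.68 and 0.33, in the direction of Kat2b. Dazl, a germ cell RNA-binding protein gene 7 genes away, was at −1.97 in the PN1 testis in 1 probe set and at 0.46 in its other. Other neighbours with a probe set at least 2-fold apart were Itga6 near Sp3 (−1.25), Secisbp2l near Fgf7 (−1.57), Sppl2a near Usp50 and Fgf7 (−1.22) and Sart3 near Coro1c (−1.14), each in the PN1 testis, and Scrn3 near Sp3 (−1.08) in the embryo. The other compared probe sets of these genes did not share the fall at PN1: Itga6 had one at 0.10, Secisbp2l one at 0.13, Sppl2a a pair at 0.02 and −0.09, and Sart3 one at 0.21. Those of Scrn3 lay below the median. Probe sets past 1.5-fold in any tissue, in either direction, made up 4.55 to 23.1% of the compared probe sets around a gene, against 11% over all compared probe sets, and rested on 13 to 29 probe sets each.

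Fgf7 and Usp50, both dimmer in 129.MOLF-Chr19, lie on chromosome 2 with 7 measured genes between them. Of 8 compared probe sets in 5 of those genes, 1 was past 1.5-fold and 0 past 2-fold in any tissue. That 1 was Dtwd1, next to Fgf7, at 0.32, 0.61 and −0.09, mostly against the direction of Fgf7. Usp8, the deubiquitinase gene next to Usp50, had its brighter probe set at 0.07, −0.05 and 0.33. Its dimmer one was at −0.19, −0.05 and −0.29, the sign of Usp50 in each tissue. Median strain differences over the neighbours were 0.11, −0.03 and 0.10 for Fgf7 and 0.05, −0.01 and −0.05 for Usp50. Sp3 lies 354 measured genes from Fgf7 and 362 from Usp50, and the 3 genes on chromosome 5 are separated by 225 to 596 measured genes.

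Profiles most like those of the 9 genes were found by the root mean square difference of the log2 values over the 6 arrays, each profile centred on its own mean, among 21373 probe sets. Of the 27 nearest genes, 3 for each, 10 lie on chromosome 19, 37%, against 3.5% of the probe sets searched. The profile contains the strain differences that chose the 9 genes, and chromosome 19 is the one that differs between the strains, so this share is given as a description. The 3 nearest of Kat2b were Tmem258, Rnaseh2c and Tmem109, and the 3 nearest of Map3k12 were Ndufv1, Cacul1 and Nhlrc2, all 6 on chromosome 19. Tmem258 was 0.18 from Kat2b, and Ndufv1, a complex I subunit gene, was 0.21 from Map3k12, with strain differences of −0.98, −1.48 and −1.25.

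Zfp606 was nearest to Tnks2, a tankyrase gene on chromosome 19, at a difference of 0.07. Tnks2 had strain differences of 0.74, 0.60 and 0.80, beside 0.58, 0.60 and 0.85 for Zfp606. Ncapg was nearest to the mitotic genes Kif11, on chromosome 19, and Bub1, on chromosome 2, at 0.14 and 0.15. Fgf7 was nearest to Gm14204 and Stam2, both on chromosome 2, at 0.07 and 0.10, and to Cdc37l1 on chromosome 19 at 0.11. For Coro1c the nearest were Cab39 at 0.07, Arl3, on chromosome 19, at 0.12 and Spg21 at 0.12. For Armc10 they were Rmdn3, Trmt1l and Map3k7 at 0.08 to 0.09, none on chromosome 19. The nearest profile of Usp50 was Cib1 at 0.23 and that of Sp3 was Selenos at 0.25, the farthest of the 9 first neighbours, and Selenos shared the reversed sign of Sp3 in the PN1 testis, at 0.35, −0.74 and 0.62.

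**Figure D4:**
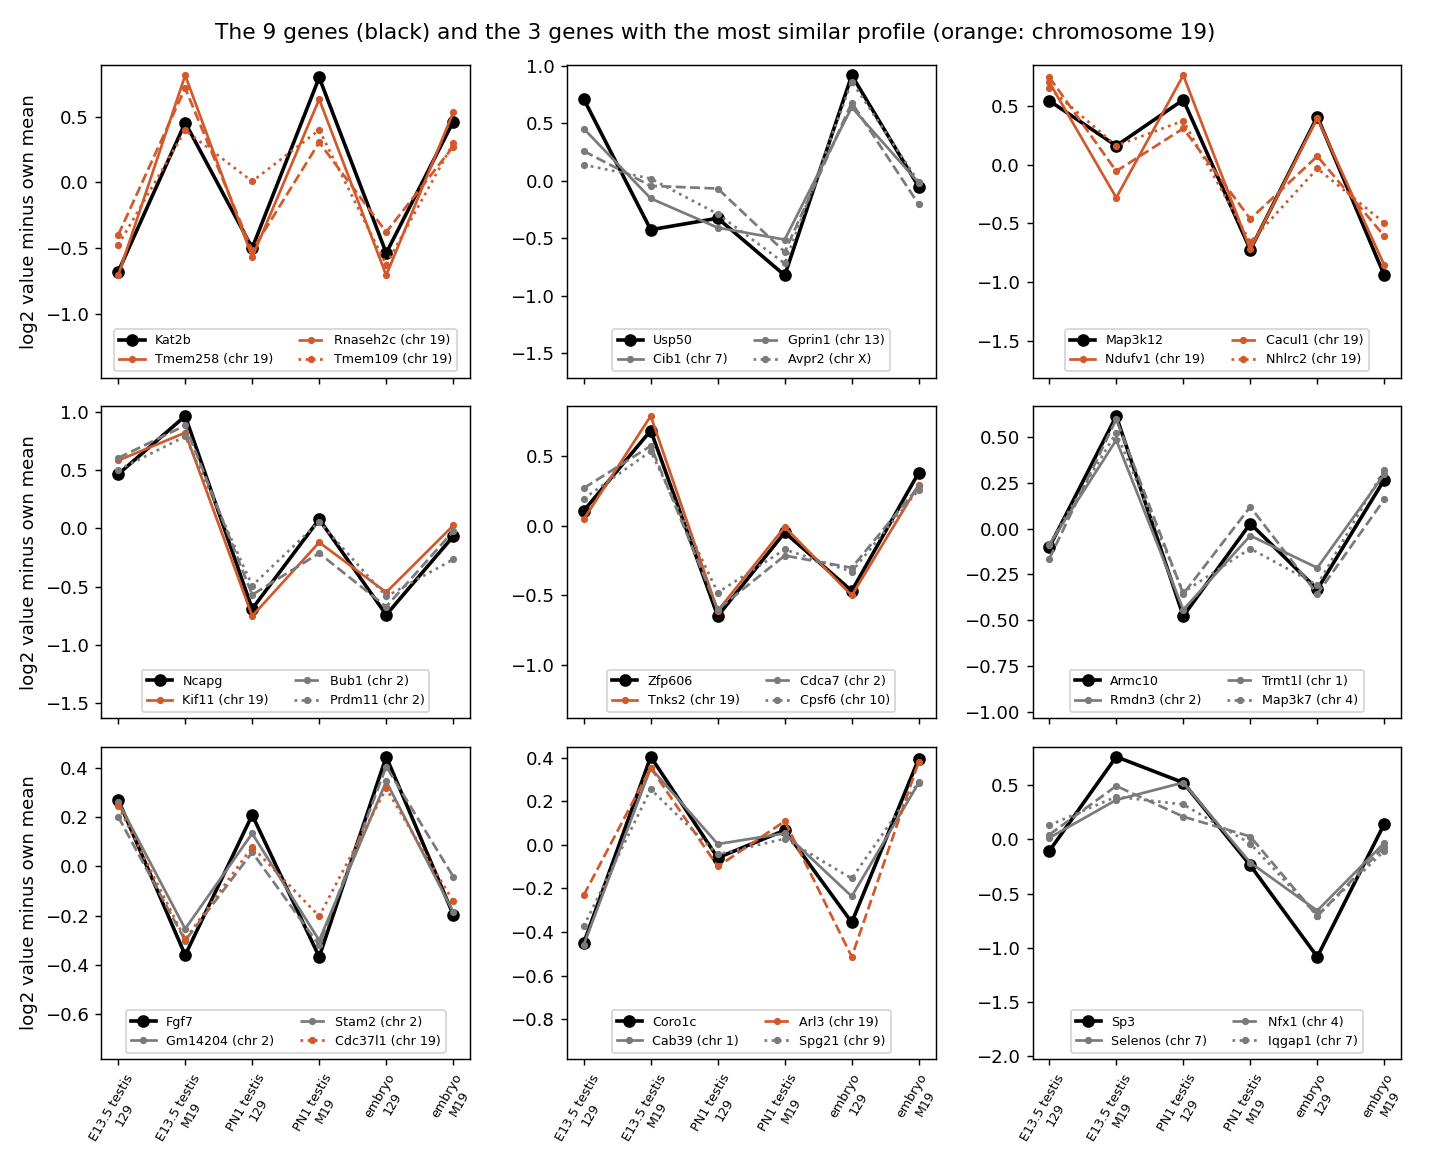
Log2 value minus the probe set's own mean on the 6 arrays for the representative probe set of each gene (black) and its 3 nearest profiles (orange, chromosome 19; grey, other chromosomes; lines join arrays of 1 probe set and show no order). All 3 neighbours are orange for Kat2b and Map3k12, and Tnks2 lies 0.07 from Zfp606.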

How the data were processed

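Male testis and embryo RNA was measured on 6 Affymetrix arrays, 1 pool each. The deposited values are probe set intensity on a linear scale. How the authors summarised and scaled them is not given in the sources used here. The table held 64 controls and 45037 other probe sets, of which 34945 had 1 gene symbol, 932 several and the rest none, per the platform annotation. Intensities were raised to the 25th percentile of their array, log2 transformed and centred on the array median (values of 0 set to 1 where no floor was used). For tissue differences, limma (version 3.58.1, R version 4.3.3) was run with lmFit and a trended eBayes, strain being a block, over 24713 probe sets above the median in at least 2 arrays, with Benjamini-Hochberg adjustment at 0.05, two-sided. Chromosomes, gene order and promoter sequences are RefSeq's, GRCm38.p6. The limma step was tested on simulated data for PN1 against E13.5 testis, with 200 of 24713 probe sets changed. It called 48% of changes of 1 (log2) and 98% of changes of 2, with 12 false calls. The labels describe pools and no replicates, so p-values rest on how far the strain difference varied over tissues. No spread among pools of the same strain and tissue was measured. The number of arrays limits the precision. The 9 genes and all gene lists were chosen with earlier results of these data known. All 9 genes were named with each probe set, as were neighbours at least 2-fold apart between strains and the 3 most similar profiles. From a partner list up to 4 genes past the threshold were named, not always those with the largest differences. Further partners passed and are not named. Kat2a, Wdr5, Arpc4, Fgf10, Fgfr1, Fgfr2, Fgfr4, Usp8, Rab5a and Dtwd1 were chosen after their values were seen. Alternatives were other scalings, floors, filters, fold thresholds and limma settings, and leaving out each array. Python 3.11.15, numpy 2.4.6, pandas 2.3.3 and matplotlib 3.10.9 were used.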

Additional observations from a re-analysis of the deposited data

Results flagged for a closer look

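Of the 22 single-symbol probe sets of the 9 genes, 2 were at least 1.5-fold apart between the strains in opposite directions in different tissues. Sp3 (1431804_a_at) was higher in 129.MOLF-Chr19 in the E13.5 testis and embryo and lower in the PN1 testis, with 1.99 (log2) between its largest and smallest strain difference. Coro1c (1417752_at) was higher in the E13.5 testis and lower in the PN1 testis, with 1.73 between them. These differences between tissues were not tested, since each strain and tissue has 1 array. The brightest Coro1c probe set was at 0.13 in the PN1 testis. Both falls rest on the consomic PN1 testis array, whose Actb 3 prime to 5 prime ratio was 1.84, against 1.09 to 1.19 elsewhere. Over all probe sets compared in the PN1 testis, 403 were at least 2-fold lower in 129.MOLF-Chr19 and 48 higher. The part of that array was not tested. Among 23711 probe sets compared in at least 2 tissues, 111 (0.468%) were 1.5-fold apart in opposite directions, and 3 had the pattern of Sp3, higher in both E13.5 tissues and lower at PN1 by at least 1.5-fold each.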

How the results depend on the processing

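No called tissue difference of the single-symbol probe sets of the 9 genes or of their partners changed sign under any alternative run. Neither did a 2-fold strain difference of the 9 genes, their neighbours or the nearest profiles under other scalings and floors. The strain differences of Wdr5 and Arpc4 were not rerun. Strain counts depended on the fold threshold: at 1.5-fold, 790 (E13.5 testis), 1379 (PN1 testis) and 958 (embryo) probe sets differed, 7, 6 and 10 of them of the 9 genes, against 40, 451 and 83 at 2-fold, with 2, 3 and 2. With quantile normalization 26 differed in the E13.5 testis, 1 of them of the 9 genes, and in the embryo 4 probe sets of the 9 genes did. Between tissues, limma called 3 probe sets of the 9 genes for PN1 against E13.5 testis, 1 with no expression filter and 0 with no strain block (0 higher and 2 lower at an unadjusted p under 0.05), and for PN1 testis against embryo 1, but 0 with no strain block and 0 with a floor at the 40th percentile (2 lower at an unadjusted p under 0.05 in each). Leaving out 1 array moved the calls over all probe sets to between 112 and 5329 for PN1 against E13.5 testis (3106 with all arrays), 526 and 7286 for E13.5 testis against embryo (4453) and 1675 and 5130 for PN1 testis against embryo (3851). The 9 genes then had 0 to 6, 0 to 4 and 0 to 3 calls; the fewest came without an E13.5 testis array in the first, without that of 129/Sv in the second and without an embryo array in the third, and the most without the PN1 array of 129/Sv, or in the second without either PN1 array. These fits have 1 residual degree of freedom and assume that a lone array varies like the others. The cause was not tested. The tissue fits pair the arrays by strain, and the labels give no replicate numbers to pair by. With 1 array per strain and tissue, no strain difference can be tested within a tissue.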
